A study of Mus musculus with 2 samples.

Results

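The p53 target and stress genes described here are 10 genes that were listed by name, namely Mdm2, Ccng1, Trp53inp1, Sesn1, Sesn2, Gdf15, Bax, Bbc3, Phlda3 and Zmat3. All 10 were found on the array, among 21348 genes that were well above background on at least 1 of the arrays. RNA was taken from cells of the submandibular gland of female C57BL/6 mice (C57BL/6N in the methods) that had been collected on magnetic beads against EpCAM, a surface protein of epithelial cells. Cells from mice aged 9 weeks (young) were hybridized to 1 Agilent mouse array and cells from mice aged 24 months (aged) to another on the same slide, both labelled with the dye Cy3. The labels name no agent and no altered gene for either group. The methods state that the young mice were bought from a breeder and the aged mice came from an animal facility, so that the origin of the mice and their age cannot be told apart. Each age rests on 1 array, so the differences below were neither tested nor checked by replicates.

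The protein p53 is a transcription factor that is held at a low level in unstressed cells and accumulates after DNA damage and other stress. It then switches on genes that stop the cell cycle, repair damage, adjust metabolism or start cell death, and it also switches on its own inhibitor. Several of these genes have other inducers as well. Gdf15 and Sesn2, for example, are also switched on by the integrated stress response, in which blocked translation leads to more of the transcription factors ATF4 and CHOP.

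The 10 genes were read by 13 probes of 60 bases, with 1 spot each on each array. Mdm2, Bax and Trp53inp1 had 2 probes, and the other 7 genes had 1. The files place the probes on the mouse build NCBI37 (mm9) and match each one to a transcript of its gene. The exon or UTR in which a probe lies was not analysed here. Both probes that cross an intron are shown first, since they can only pair in full with spliced RNA. The Bax probe A_51_P254541 lies at chr7:52721469-52721624 on the minus strand, with 96 intervening bases left out, and the Mdm2 probe A_55_P2606086 at chr10:117139375-117142253 on the minus strand, with 2819 bases left out.
Bax A_51_P254541: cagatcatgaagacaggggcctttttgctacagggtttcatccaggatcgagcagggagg
Mdm2 A_55_P2606086: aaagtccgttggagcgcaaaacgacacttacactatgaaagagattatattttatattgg

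The other probes each lie in 1 block of the genome, and 5 of them hold AATAAA, the letters of the commonest polyadenylation signal. This hexamer was found in 5529 of 56605 probes (9.77%). For these 5, 30 bases that hold it are shown, with the hexamer in capitals. Whether it serves as a signal in these transcripts was not analysed. They belong to Gdf15 (probe A_55_P1960735, chr8:73153293-73153352, minus strand), Mdm2 (A_55_P1975475, chr10:117126010-117126069, minus), Ccng1 (A_52_P612803, chr11:40562427-40562486, minus), Sesn1 (A_51_P233954, chr10:41628000-41628059, plus) and Zmat3 (A_51_P415220, chr3:32233831-32233890, minus).
Gdf15: taaaactctgctAATAAAggtgagcttggt
Mdm2: gtcccgatttacAATAAAgtaccttgtgtg
Ccng1: agaAATAAAattgctgagtttatctgcaaa
Sesn1: tatacagctccttaaagAATAAAgctggaa
Zmat3: tccttcagcctAATAAAtacagaagtctga

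Promoters from RefSeq on GRCm38.p6, running from 250 bases before to 50 bases after a start site, were matched for 8 of the 10 genes, with 12 promoters in all. Trp53inp1 and Zmat3 were not matched. The p53 half-site, the decamer that pairs up to form a p53 response element, was searched by its standard consensus with no mismatch allowed. It reads the same on both strands. It was found in 1 promoter each of Bax, Ccng1, Mdm2 and Sesn1, and in 2745 of all 32851 promoters (8.36%). The 4 matches are shown in capitals within 30 bases, because they are the single decamers that the search found in these windows.
Bax chr7:45467080-45467109, minus strand: agcatatcccAGGCAAGCTTtgaacttgcg
Ccng1 chr11:40755452-40755481, minus strand: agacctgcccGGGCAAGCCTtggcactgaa
Mdm2 chr10:117710925-117710954, minus strand: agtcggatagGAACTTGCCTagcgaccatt
Sesn1 chr10:41887256-41887285, plus strand: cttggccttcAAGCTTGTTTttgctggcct

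The matches began 201 bases before the start site for Bax, 185 for Ccng1, 186 for Mdm2 and 173 for Sesn1. Neither promoter of Gdf15 held one, nor did those of Bbc3, Phlda3 and Sesn2. A pair of decamers with at most 13 bases between them was found in 24 of all promoters (0.0731%) and in none of the 12. The letters TGATGNAA of the element bound by ATF4 and CHOP, searched on both strands, were in 1304 promoters (3.97%) and in none of the 12. These matches describe letters in a short window and nothing more.

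On each array, the software marked all 13 probes as well above background and none as saturated. Levels are given as the processed signal of the scanner software and as log2 of that signal relative to the 75th percentile of the array, which was 256 in the young and 198 in the aged sample. The error given after ± is that of the software for a single spot, which mostly comes from an assumed proportional error and does not cover the spread between mice. Differences are aged minus young on this log2 scale, and a difference of at least 2-fold, the threshold named in the methods, is called higher or lower. Ranges over scalings cover the 75th percentile and 6 other ways of setting the arrays level.

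Gdf15 was the only one of the 10 genes that passed 2-fold. It encodes a secreted cytokine of the TGF-beta superfamily that is released by many stressed cells and acts on appetite through a receptor in the hindbrain. Its signal was 275 ± 27.7 in the young sample and 984 ± 98.4 in the aged sample. Relative to the 75th percentile, it went from 0.10 to 2.31, a difference of 2.21 ± 0.20 (4.62-fold higher). The gene was thus near the 75th percentile in the young sample and well above it in the aged sample. Before any background correction, the mean intensity of the spot was 338 and 1116, over a local background of 48 and 50. The difference ranged from 1.95 to 2.38 over the scalings (3.86-fold to 5.22-fold), so that it was past 2-fold under each of the 7. Only 43 of the 18746 genes measured on both arrays (0.229%) had a higher one. In the authors' own processed table, the value of this probe was 1.20 for the young and 5.59 for the aged sample.

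**Figure D1:**
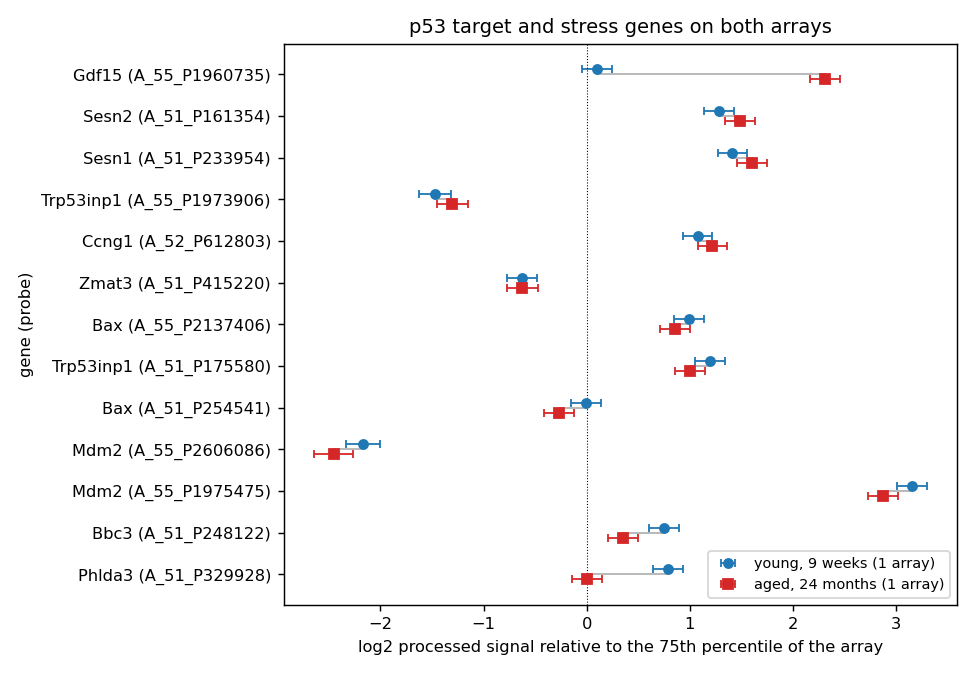
Level of each of the 13 probes on the young (blue circles) and the aged array (red squares), as log2 of the processed signal relative to the 75th percentile of the array, with bars for the error of the software and a grey line joining each pair. Gdf15 goes from 0.10 to 2.31, Phlda3 from 0.79 to 0.00, and the other pairs lie close together, and levels of different probes are not comparable.

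Among the genes that feed back on p53 or the cell cycle, neither Mdm2 nor Ccng1 passed 2-fold. Mdm2 encodes the ubiquitin ligase that marks p53 for degradation. By its brightest probe, its signal was 2286 ± 229 in the young and 1451 ± 145 in the aged sample, and its level 3.16 and 2.87. The difference was -0.28 ± 0.20 (1.22-fold lower) and stayed below 0 under the 7 scalings, from -0.54 to -0.11. The other Mdm2 probe, which crosses an intron, had signals of 56.9 ± 6.44 and 36.1 ± 4.73. Under the 75th percentile, it gave the same difference, -0.28 ± 0.25, and the gap between the probes was 0.00087 against an error of 0.32. Its range over the scalings was -0.54 to 0.01, so that, unlike the brightest probe, it did not stay below 0. The value above 0 came with normexp background correction. Ccng1 encodes cyclin G1, which brings a phosphatase to MDM2. Its signals of 540 ± 54.2 and 462 ± 46.3 gave a difference of 0.14 ± 0.20, with a range from -0.11 to 0.32 over the scalings.

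Phlda3 had the lowest difference of the 10 genes. Its product is a small protein with a pleckstrin homology domain that competes with the kinase AKT for membrane lipids and so restrains survival signalling. Its probe (A_51_P329928, chr1:137665642-137665701, plus strand) read 444 ± 44.5 in the young and 198 ± 20.1 in the aged sample, levels of 0.79 and 0.00. The difference was -0.79 ± 0.21 (1.73-fold lower), under the threshold, with a range of -1.05 to -0.62. It passed 2-fold under 1 of the 7 scalings, the spike-in controls, at -1.05. Of all genes measured on both arrays, 844 (4.50%) had a lower difference.

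Bax and Bbc3 act in the mitochondrial pathway of cell death, where BAX forms pores in the outer membrane and PUMA, the product of Bbc3, releases it from the anti-apoptotic BCL-2 proteins. Bbc3 was read by A_51_P248122 (chr7:16903403-16903462, plus strand) at 431 ± 43.2 in the young and 252 ± 25.5 in the aged sample. The difference of -0.40 ± 0.21 (1.32-fold lower) ranged from -0.66 to -0.23 over the scalings. Bax had signals of 510 ± 51.1 and 359 ± 36.0 by its brightest probe (A_55_P2137406, chr7:52717122-52717181, minus strand). This gave a difference of -0.14 ± 0.20, which ran from -0.39 to 0.04. The intron-crossing Bax probe read 256 ± 25.8 and 164 ± 16.7, a difference of -0.27 ± 0.21. Both Bax probes were thus lower in the aged sample under the 75th percentile, and they differed from each other by 0.13 against an error of 0.29.

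The sestrins Sesn1 and Sesn2 encode stress proteins that bind the GATOR2 complex and hold back the growth kinase mTORC1 when amino acids such as leucine are scarce. Their values were nearly the same in kind. Sesn1 had signals of 683 ± 68.4 and 601 ± 60.2, a difference of 0.19 ± 0.20. Sesn2 (A_51_P161354, chr4:132048858-132048917, minus strand) had 625 ± 62.6 and 555 ± 55.6, a difference of 0.20 ± 0.20. Both differences were within 1 software error of 0 and both changed sign over the scalings, which gave -0.07 to 0.36 for Sesn1 and -0.06 to 0.37 for Sesn2.

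Trp53inp1 encodes a stress protein that promotes the phosphorylation of p53 and takes part in autophagy, and its probes disagreed. The brighter one (A_51_P175580, chr4:11101174-11101233, plus strand) read 589 ± 59.0 and 396 ± 39.8, a difference of -0.20 ± 0.20 with a range of -0.46 to -0.03. The dimmer one (A_55_P1973906, chr4:11092530-11092589, plus strand) read 92.3 ± 9.74 and 80.3 ± 8.63, a difference of 0.17. Their gap of 0.37 stood against an error of 0.30, and no direction is given for the gene. Zmat3 encodes a zinc finger protein that binds RNA and regulates splicing and RNA stability. Its signals of 166 ± 17.0 and 128 ± 13.4 were at almost the same place relative to the 75th percentile, -0.63 and -0.62, and its difference ran from -0.26 to 0.18 over the scalings.

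**Figure D2:**
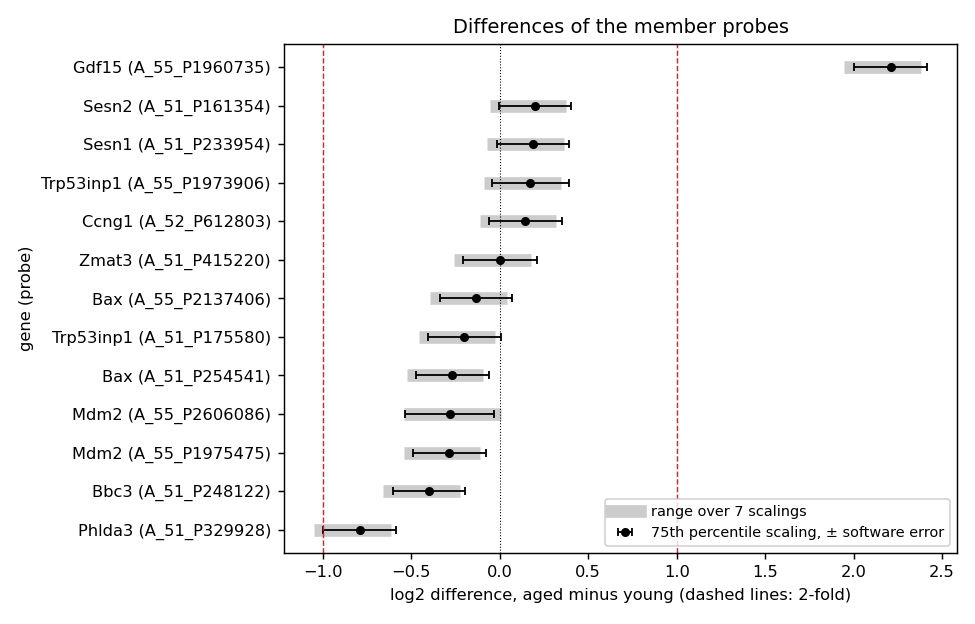
Difference of each of the 13 probes between the aged and the young array on the log2 scale, with points for the 75th percentile scaling, bars for the error of the software and grey bands for the range over 7 scalings. Gdf15 lies between 1.95 and 2.38, past the dashed line of 2-fold, and Phlda3 reaches the line on the other side at -1.05 under 1 scaling.

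Counted together, 1 of the 10 genes was at least 2-fold higher in the aged sample and 0 were lower. Of the 18746 genes measured on both arrays, 284 (1.51%) were higher and 572 (3.05%) lower. With genes measured on 1 array only and their limits included, 539 of 21348 genes (2.52%) were higher and 1098 (5.14%) lower. The higher share of the 10 genes was thus 10%, which rests on Gdf15 alone. Under the 75th percentile, 33.2% of the calls measured on both arrays were higher, against 52.6% with the array median and 13.8% with the spike-in controls. The median difference of the 10 genes was -0.07, and that of all genes 0.09. Without Gdf15, the other 9 had a median of -0.14 and ran from -0.79 for Phlda3 to 0.20 for Sesn2.

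Some of the scalings move all genes by the same amount, whereas quantile, loess and normexp can move bright and dim probes differently. The median of all genes ranged from -0.16 to 0.27 over the 7 scalings. Relative to that median, Gdf15 was higher by 2.11, with a range from 1.84 to 2.13. Phlda3 stood at -0.89 and Bbc3 at -0.49 on this relative scale, followed by Mdm2 at -0.38, the brighter Trp53inp1 probe at -0.29 and Bax at -0.23. All 5 were below the median of all genes under each scaling. Sesn1 and Sesn2 were above it under each scaling, but by only 0.09 and 0.11. Ccng1 and Zmat3 changed side.

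**Figure D3:**
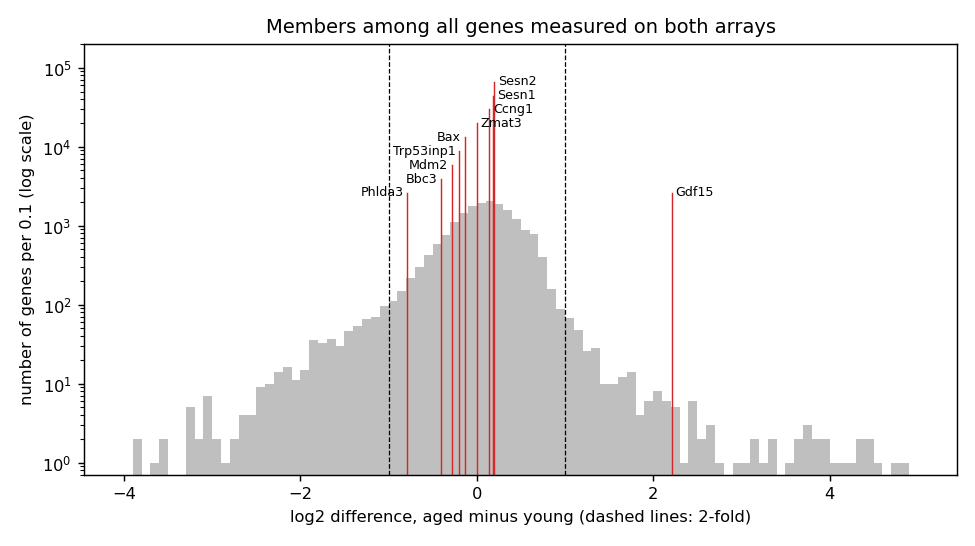
Histogram of the log2 difference, aged minus young, of the 18746 genes measured on both arrays, in steps of 0.1 with a log scale for the number of genes, and red lines for the 10 named genes. Gdf15 at 2.21 stands in the sparse upper tail beyond the dashed line of 2-fold, and the other 9 lie from -0.79 to 0.20 in the body of the distribution.

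The other genes of the pathway were taken from 8 lists with 87 genes, of which 78 were measured on both arrays. Past 2-fold, 3 of these 78 (3.85%) were higher and 1 (1.28%) was lower, beside the 1.51% and 3.05% of all genes, and their median was -0.02. Over the scalings, the median of 5 of the lists changed sign, and that of the arrest and BCL-2 lists stayed below 0. So did the value of Ret, the only gene of the GDF15 receptor list that was measured on both arrays. All 3 higher genes stood in the integrated stress response list, whose 15 genes had a median of 0.12. They were Atf5, a transcription factor of the ATF4 family (signal 3997 and 12370, 4.01-fold), Psat1, an enzyme of serine synthesis (1026 and 2404, 3.03-fold), and Chac1, which degrades glutathione (5733 and 9771, 2.21-fold). Atf5 and Psat1 passed 2-fold under all 7 scalings, and Chac1 under 4. The other 12 genes of this list were within 2-fold, from -0.47 to 0.75. Atf4 and Ddit3, which encodes CHOP, differed by 0.32 and -0.19. Of Gdf15 and Sesn2, which this response can also switch on, Gdf15 was past 2-fold and Sesn2 was not. The part of this response in the value of Gdf15 was not tested.

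The regulators of p53 itself had no gene past 2-fold by the brightest probe among 14 measured, and a median of 0.01. A dimmer probe of Atr, a kinase of the DNA damage response, stood above background in the aged sample alone, with a limit of at least 4.85-fold higher, whereas the brightest Atr probe differed by 0.06 and another by -0.20. Chek2, a kinase that activates p53, had the highest difference by the brightest probe at 0.85 (45.3 and 63.2) and passed 2-fold under the array median, at 1.03. Ppm1d, a phosphatase that turns p53 off, had the lowest at -0.68, whereas its other probe gave 0.35. Trp53, the gene of p53, had signals of 140 and 99.0 and a difference of -0.13. Trp53 and Cdkn1a, and Atf4 and Ddit3 above, are named for their place in the pathway, with their values known.

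Among other targets of p53, those of arrest and feedback had a median of -0.19, and 9 of the 11 were measured on both arrays. Cdkn1a, the cell cycle inhibitor p21, went from 350 to 215, a difference of -0.33. Psrc1, which encodes a protein of the mitotic spindle, was measured on the young array only, at 94.3, and was at least 5.11-fold lower in the aged sample. With normexp background correction, this limit was 1.66-fold. Of the targets in cell death, Pmaip1, which encodes the BH3-only protein NOXA, went from 282 to 59.0, a difference of -1.89 (3.70-fold lower), and it was past 2-fold under all 7 scalings. The other 9 measured genes of that list were within 2-fold, and their list had a median of 0.09. The list of repair and metabolism had no gene past 2-fold. Its highest difference was 0.73 for Ddit4, an inhibitor of mTORC1, its lowest -0.42 for Xpc, a DNA repair protein, and its median -0.11.

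The lists of proteins linked to those described above showed no call. The BCL-2 family, to which Bax and Bbc3 belong, had a median of -0.23 over 11 genes. It ran from -0.92 for Bmf, whose other probe gave 0.70, to 0.59 for Bok. The 8 genes of the GATOR1 and GATOR2 complexes, of which the sestrins bind GATOR2, ran from -0.39 for Depdc5 to 0.74 for Sec13. Their median was -0.01. Neither array measured Gfral, the receptor of GDF15, well above background, and its co-receptor Ret differed by -0.26.

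**Figure D4:**
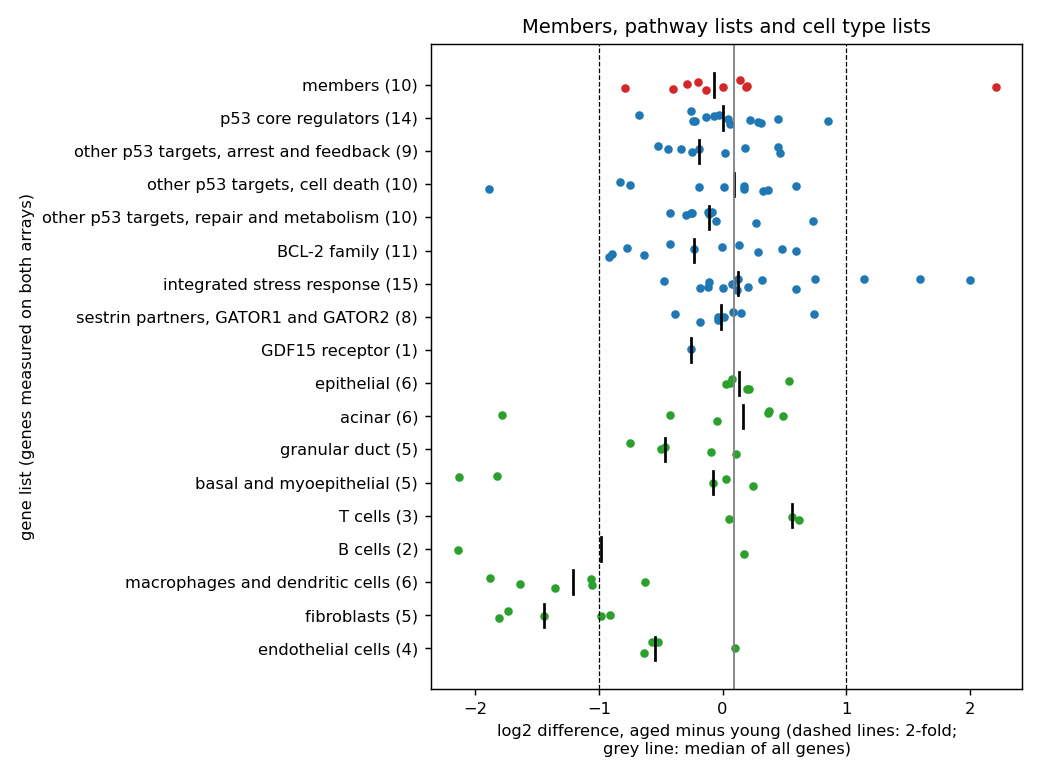
Log2 difference, aged minus young, of the 10 named genes (red), the genes of 8 pathway lists (blue) and those of 9 cell type lists (green) that were measured on both arrays, with a black bar for each median and a grey line for the median of all genes. Gdf15 and Atf5 are the points farthest to the right, and the macrophage and fibroblast lists lie below 0 as a whole.

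Besides the purity of the sorted cells that the methods report, the label of epithelial cells was checked here against markers. The young array measured all 7 epithelial markers above background and both arrays 6 of them, and Epcam itself had signals of 1778 and 1573. Under the 75th percentile, the differences of the 6 ran from 0.03 to 0.54, but their median ranged from -0.22 to 0.31 over the scalings. The remaining one, Krt19, was dim (34.2 in the young sample) and at least 1.85-fold lower in the aged sample. This limit passed 2-fold under 2 of the 7 scalings and was as low as 1.00-fold under another. Markers of other cells were measured too, and differed between the arrays. All 6 markers of macrophages and dendritic cells were on both arrays and lower in the aged sample by the brightest probe, 5 of them at least 2-fold. Another probe of Itgax, 1 of these 5, gave 0.42, and another of Csf1r, which was within 2-fold, gave -0.08. The summed ratio of the 6 to the 75th percentile went from 44.7 to 25.2. Of the 6 fibroblast markers, 3 were at least 2-fold lower as measured and 1 by its limit, and the sum went from 18.6 to 8.70. Such sums are weighted to the brightest probes, and levels of different probes are not comparable. Smgc of the acinar list (-1.79) and Cd79b of the B cells (-2.14) were lower as well. So were Cnn1 (-2.14) and Myh11 (-1.83, with 0.12 by another probe) of the basal and myoepithelial list. Acta2 of the same list differed by -0.08 by its brightest probe (2246 and 1642), but by -1.96 by another (1895 and 375). A further Acta2 probe, measured on the young array only, was at least 4.31-fold lower. The acinar, B cell and basal lists were mixed, however. Of the 6 acinar markers, 3 were above 0 and 3 below, with a median of 0.16. Krt5 (0.03) and Krt14 (0.25) of the basal list and Pax5 (0.17) of the B cells were not lower. Of the T cell markers, the 3 measured on both arrays were above 0, with a median of 0.56, although Cd4 changed sign over the scalings, and Cd3g was at least 2.06-fold lower, a limit that passed 2-fold under 4 of the 7 scalings. No gene of the granular duct or endothelial lists passed 2-fold under the 75th percentile, but Klk1b9 of the granular duct (-0.75) did under 3 of the 7 scalings. The medians of these lists were -0.47 and -0.55, and both stayed below 0 over the scalings. The part of these cells in the values of Gdf15, Phlda3 or the other genes was not tested, and fewer cells of a type cannot be told apart from less RNA per cell. On the arrays as a whole, 55.4% of the young and 50.8% of the aged spots for transcripts were well above background. Over 271 probes printed in 10 spots, the difference had a median SD of 0.033 between spots.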

How the data were processed

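EpCAM-positive cells of submandibular glands were profiled on 1 array per age. The deposited scanner intensities came from Feature Extraction 12.0.3.1, by which the authors had the background subtracted and trends across the array removed, without scaling between arrays. The authors' processed table, used as an alternative, holds the same signal divided by a constant per array (229 young, 176 aged). Spots of one probe were averaged, outlier spots and controls were left out, and log2 signals were set relative to the 75th percentile of 59305 non-control spots. A gene took its brightest probe well above background on at least 1 array. For a probe measured on 1 array, the fold is a limit. The dim array was given its detection floor, the dimmest signal marked as well above background (14.1 young, 14.3 aged), or the probe's own signal where that was higher. Names came from RefSeq accessions for 33767 of 56605 probes (GRCm38.p6 table, names only). The members and lists were chosen with earlier results of these data known. Besides the members, the rule named genes past 2-fold in each list and, where a pathway list had none, its highest and lowest gene. The result of 1 listed marker gene is not reported here.

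The alternatives were the array median, quantile normalization, loess (span 0.7, 3 iterations), the 75th percentile of the probes measured on both arrays, the 280 spike-in control spots and normexp (offset 50), which with the 75th percentile make the 7 scalings, and further the authors' table, averaged probes, kept outlier spots and 2 other filters on dim probes. R 4.3.3 with limma 3.58.1 and Python 3.11.15 with numpy 2.4.6, pandas 2.3.3 and matplotlib 3.10.9 were used, and the steps were tested on simulated data. The number of arrays limits the precision.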

Additional observations from a re-analysis of the deposited data

How the results depend on the processing

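The 10 genes were recomputed under 11 alternatives. Of 110 differences, 98 moved by less than the software error and 12 by more, 10 of these with the spike-in controls. Gdf15 was past 2-fold under each of the 11, and its lowest differences were 1.95 with the spike-in controls and 1.95 with normexp. With the spike-in controls, 2 genes were at least 2-fold apart, Gdf15 and Phlda3, and the median of the 10 was -0.32. The count was 1 and the median between -0.18 and 0.11 under the others. By the brightest probe, Bax, Ccng1, Sesn1, Sesn2 and Zmat3 changed sign under at least 1 scaling.

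Over all genes measured on both arrays, 284 were higher and 572 lower, against 107 and 209 with normexp, 150 and 935 with the spike-in controls and 464 and 418 with the array median. Of the results for the pathway lists, 78 of 96 moved by less than their spread and 18 by more. Calls rose from 0 to 3 in the BCL-2 family and from 1 to 3 in the cell death list with the spike-in controls, and from 0 to 2 in the BCL-2 family with the 75th percentile of probes measured on both arrays. The arrest list had 2 calls in place of 1 under that scaling, loess and the spike-in controls, and 0 with normexp, and the p53 regulators had 1 in place of 0 with the array median. The cause was not tested.

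With 1 array per age, leaving out an array or fitting the slide was not possible, and signal over background limits the dim probes, such as the second Mdm2 probe. No paired analysis was possible because each age had 1 array.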
